A study of Mus musculus with 12 samples.

Results

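The genes for the proteins of the cytosolic ribosome were examined in RNA sequencing of mouse thyroid. Members were taken by name from the deposited count table, as Rps or Rpl followed by a number and at most 1 of the letters a, l or x, together with Rpsa, Rplp0, Rplp1 and Rplp2. This gave 83 of 55536 genes, of which 80 had enough counts to be tested among 19661 tested genes. Of the 83 members, Rpl10l had 0 counts in every mouse and Rpl39l had between 0 and 3 counts in a mouse. Rpl6l, which is annotated as a pseudogene, had a mean of 1.05 counts per mouse. These 3 had too few counts and were not tested. Rpl32l and Rps4l were tested but are also annotated as pseudogenes, so 78 of the tested members are protein coding, 31 of the small and 47 of the large subunit.

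The study asked what underlies thyroid dysplasia in mice of the C57BL/6NTac strain (B6NTac, from Taconic) and examined a LINE-1 element, a transposable sequence, in the thyroglobulin gene Tg. Thyroids of 5 affected B6NTac mice were sequenced, with 1 library per mouse. The unaffected group of 7 held 6 wild type C57BL/6NCrl mice (B6NCrl, from Charles River) and 1 unaffected knockout mouse from Taconic, labelled 14. All the mice are C57BL/6N, and the labels give neither age, sex, the LINE-1 genotype nor the gene knocked out in mouse 14. Because every affected mouse came from Taconic and 6 of the 7 unaffected mice came from Charles River, disease and colony cannot be told apart. Of the 80 members, 75 lay within the range of the 6 B6NCrl mice in mouse 14, with 3 above and 2 below it.

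A ribosome has a small subunit, which reads the mRNA, and a large subunit, which joins the amino acids and lets the growing chain out through an exit tunnel. Each ribosomal protein is present in about 1 copy per ribosome, except the acidic stalk proteins, and cells make them together. In vertebrates the mRNAs of ribosomal proteins begin with a 5′ terminal oligopyrimidine (TOP) tract, a C followed by further C and T bases, through which the mTOR pathway and the RNA-binding protein LARP1 control their translation. A few members have a second copy of the gene, often used in particular tissues, and these copies are named with an l for like. Thyrocytes export very large amounts of thyroglobulin, so ribosomes on the endoplasmic reticulum are prominent in them.

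Gene starts in RefSeq (GRCm38.p6) were found for 61 of the 83 members. In the 30 bases around the start, 15 on either side, unbroken runs of at least 8 pyrimidines were sought on the strand that reads as the mRNA. At least 1 listed start had such a run in 27 of the 61 members (44.3%), against 13.9% of 27025 genes with a listed start. The letters CTTTCC stood on the strand that reads as the mRNA in 10 members (16.4%) and in 1.67% of all genes. Their reverse complement GGAAAG, which places them on the other strand, stood in 0 members and in 1.48% of all genes. Starts of members that the comparisons turn on are shown here, each from the gene's first listed start, with the longest pyrimidine run in capitals where it reaches 6 bases. Rplp0 (chr5:115559452-115559481, plus strand) and Rps27l (chr9:66946071-66946100, plus strand) had the largest increases. Rps27 (chr3:90213634-90213663, minus strand) is the partner of Rps27l, Rpl35 (chr2:39005117-39005146, minus strand) had the longest run shown, Rps6 (chr4:86857353-86857382, minus strand) encodes the phosphorylated protein read as a sign of mTOR activity, Rpl22 (chr4:152325711-152325740, plus strand) was not higher, and Rpl3l (chr17:24727811-24727840, plus strand) is a muscle copy.
Rplp0: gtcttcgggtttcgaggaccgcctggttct
Rps27l: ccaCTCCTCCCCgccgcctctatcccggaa
Rps27: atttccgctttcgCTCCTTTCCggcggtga
Rpl35: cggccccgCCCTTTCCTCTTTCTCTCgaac
Rps6: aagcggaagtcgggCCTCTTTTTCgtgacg
Rpl22: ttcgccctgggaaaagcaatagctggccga
Rpl3l: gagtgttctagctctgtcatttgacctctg
The run was 18 bases long in Rpl35, 10 in Rps6, and 9 in both Rps27 and Rps27l. The runs of Rpl35, Rps6 and Rps27 span the listed start, while that of Rps27l ends before it. Whether the listed starts are those used in thyroid was not tested, so the windows do not show which mRNAs carry a TOP tract. In Rplp0, Rpl22 and Rpl3l no run of 6 pyrimidines was present in this window.

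Members were abundant but unevenly so. By FPKM, which scales a count to gene length and library size, the 78 protein-coding members tested had a median of 176 over the 12 mice, with the middle of the range from 110.4 to 221. Among the highest were Rpl41 at 456 and Rps24 at 404. The lowest protein-coding members were Rpl3l at 9.39, Rpl12 at 12.5 and Rpl5 at 28.4, and the pseudogenes Rps4l and Rpl32l stood at 4.10 and 1.02. A low value need not mean little RNA, because many processed pseudogenes are near-identical to their parent and can take its reads. Rows annotated or named as pseudogenes of members held between 11.02% and 14.1% as many counts as the members themselves in a mouse. For Rpl5 those rows held 781% of the gene's own count, for Rpl10 308%, for Rps12 206% and for Rpl35 173%. The levels of these 4 genes are therefore the most uncertain. Lower but still large shares were held for other members, such as Rpl11 (65.0%), Rpl27a (59.0%), Rpl36a (37.5%) and Rps16 (33.5%). Of 36 tested genes that are themselves named as pseudogenes, 2 were higher in affected mice and 0 lower, where 7.63% of all genes were higher, with a median log2 fold change of 0.19.

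Libraries held between 11434900 (unaffected 14) and 23319900 counts (affected 5) as sums of estimated counts. Members took 1.196%, 1.15%, 1.12%, 1.15% and 0.917% of the counts of affected mice 1, 3, 4, 5 and 6. They took 0.988% in unaffected mouse 14 and 1.04%, 0.925%, 0.870%, 0.881%, 0.986% and 0.929% in unaffected mice 21 to 26. The mean was 1.11% ± 0.110 (SD, n = 5) when affected and 0.946% ± 0.0622 (SD, n = 7) when unaffected, and affected mouse 6 lay within the unaffected range. The denominator of this share matters, since Tg alone took 16.9% ± 5.91 (SD, n = 5) of the counts in the affected group and 24.1% ± 2.99 (SD, n = 7) in the unaffected group. With Tg left out of the total, members took 1.34% ± 0.182 (SD, n = 5) against 1.25% ± 0.0769 (SD, n = 7), and the groups overlapped. Of the summed FPKM, members took 2.81% ± 0.234 (SD, n = 5) in affected and 2.86% ± 0.144 (SD, n = 7) in unaffected mice. Whether the change in the share of Tg sets the difference in the plain share was not tested.

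Between the groups, 47 of the 80 members were higher in affected mice and 0 were lower, at an adjusted p under 0.05 (edgeR's quasi-likelihood test on counts scaled by TMM factors, which take most genes as unchanged, with Benjamini-Hochberg adjustment across 19661 genes). Over all genes tested the same rule called 7.63% higher and 6.1% lower, and 13.7% in either direction. The changes were small. The median log2 fold change of the members was 0.24, with quartiles of 0.17 and 0.30 and a range from -0.06 to 0.67, against a median of 0.01 over all genes tested. It was positive for 77 of 80 members and for 50.8% of all genes. In 26 members the groups did not overlap, with the affected mice above, against 3.78% of all genes, and in 0 members the affected mice all lay below, against 3.36%. Genes of both subunits were among them, with 21 of 31 small subunit genes higher (median 0.23) and 26 of 47 large subunit genes (median 0.25). The deposited table marks 47 of the 80 as confounded, which means that they lie over another annotated gene, and 26 of these were higher, as were 21 of the 33 unmarked members. At an unadjusted p under 0.05, 61 members were higher and 0 lower, and DESeq2 also called 0 lower. Members move together, so these counts are not 80 separate observations. In whole thyroid, a change in the mix of cells and a change in the RNA of each cell cannot be told apart.

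**Figure D1:**
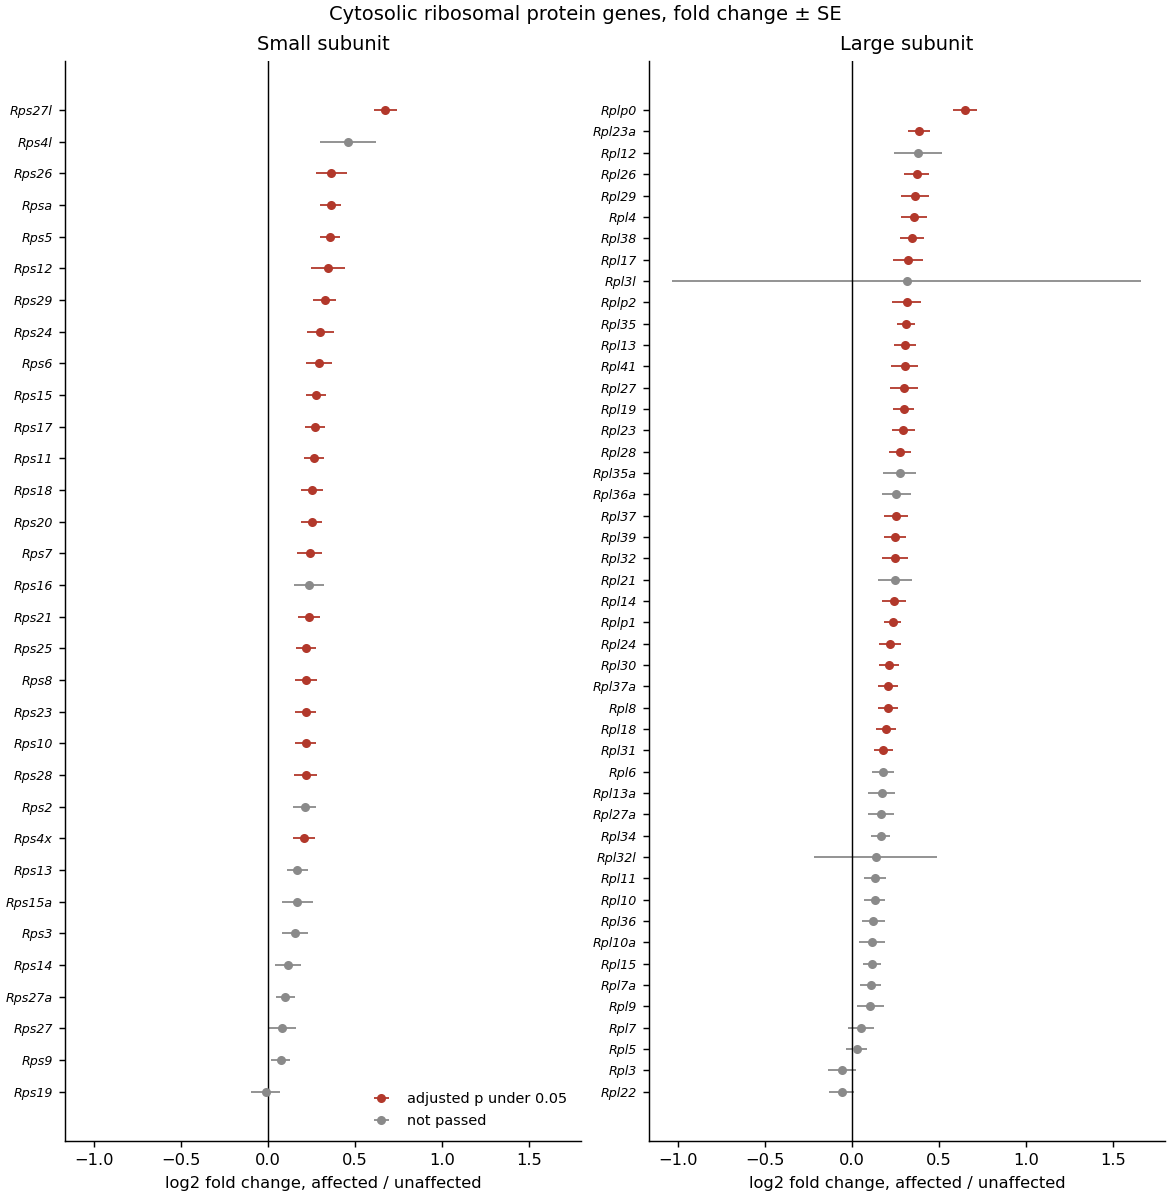
Log2 fold changes between 5 affected and 7 unaffected mice for 79 of the 80 tested members, by subunit, with bars of 1 standard error and red points for an adjusted p under 0.05. Rps27l (0.67) and Rplp0 (0.65) stand apart at the top, the quartiles lie at 0.17 and 0.30, and Rpl22, Rpl3 and Rps19 lie just below 0.

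How many members passed depended on the scaling of the libraries. With library totals that leave out Tg, the members higher fell to 2 (Rplp0 and Rps27l), and 3.09% of all genes were called higher and 8.7% lower. With upper-quartile factors 22 members were higher, with plain library totals 15, and with DESeq2 57. Adding the counts of pseudogene rows to their parents gave 49, with 7.64% of all genes higher. Rpl27a and Rps16, not called before, were among the 49. The median of all genes moved with the scaling, to -0.13 without Tg in the totals, and the median of the members moved with it, to 0.10. A change of scaling moves every gene by about the same amount, so the distance between the 2 medians, 0.23 with TMM, is fixed by arithmetic across the scalings and is no check of the result. When mice, genes or the unit were changed, that distance lay between 0.21 and 0.30 on the log2 scale. In those fits 0 members were lower, and between 75 and 79 had a positive log2 fold change, or 31 where only 33 were tested. With library totals that leave out Tg, 63 were positive. The size of the increase is thus given relative to the other genes. Whether the total amount of ribosomal protein mRNA per thyroid rose, and how far, cannot be read from these libraries.

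**Figure D2:**
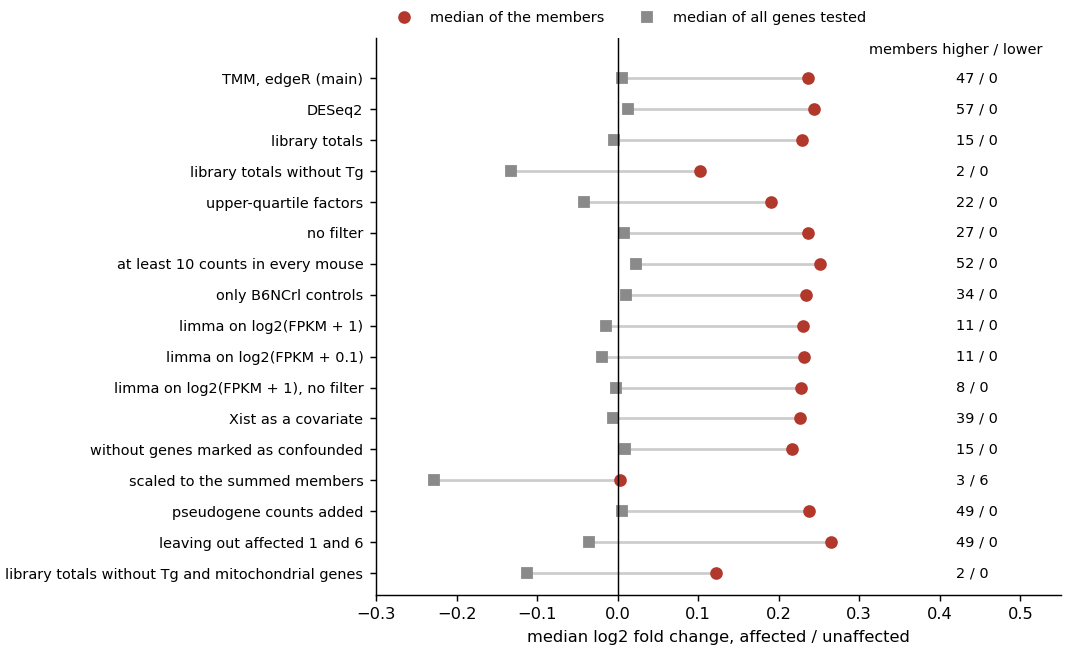
Median log2 fold change of the members (circles) and of all genes tested (squares) for each way of processing, with the number of members called higher and lower at the right. Circle and square move together between scalings, as they must, and the number of members called higher ranges from 2 without Tg in the totals to 57 with DESeq2. The fit scaled to the summed members, used further on to compare members with each other, is shown as well.

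The mice did not contribute alike. Relative to the mean of the unaffected mice, the median member was higher by 0.22, 0.21, 0.26, 0.30 and 0.12 on the log2 scale in affected mice 1, 3, 4, 5 and 6. In the unaffected mice the same median ran from -0.09 (mouse 23) to 0.10 (mouse 25). The number of members above every unaffected mouse was 63, 61, 55, 72 and 37 in affected mice 1, 3, 4, 5 and 6. Affected mouse 6 stood closest to the controls, and without it 51 members were higher. Leaving out affected mouse 5 left 20 members higher, affected mouse 3 left 28, unaffected mouse 26 left 25 and unaffected mouse 23 left 31.

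**Figure D3:**
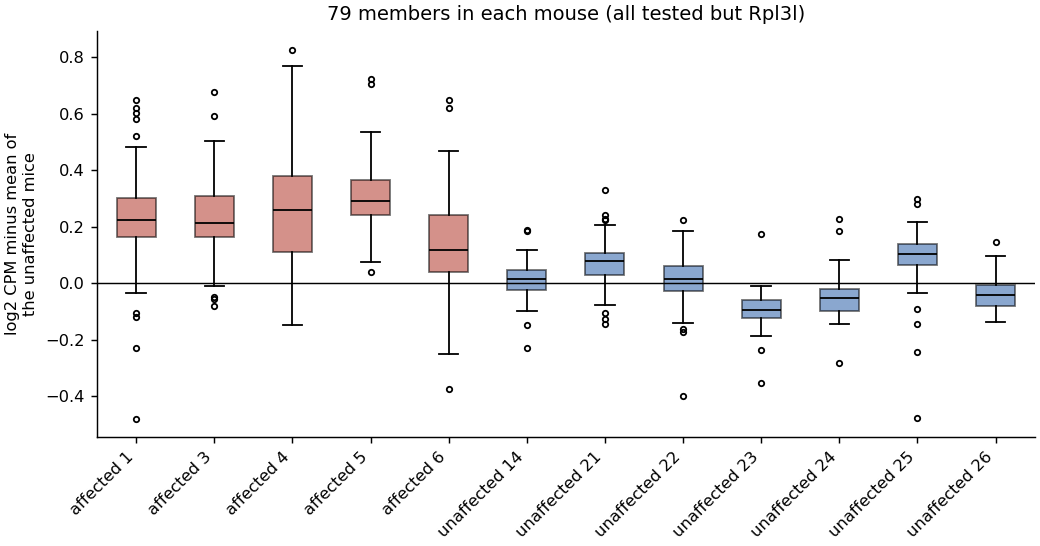
Each box shows 79 members in 1 mouse as log2 CPM minus the mean of the 7 unaffected mice, with Rpl3l left out because of its spread. The boxes of affected mice 1, 3 and 5 lie above every unaffected box, and those of affected mice 4 and 6 reach down into the unaffected boxes.

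Other cell types differed between these thyroids. The summed CPM, a count scaled to the library size of the test, of 8 macrophage markers was 198 to 291 in affected and 92.2 to 208 in unaffected mice, with 4 of the 8 genes higher (Cd163, Cd68, Mrc1 and Csf1r). Of 6 fibroblast markers, Dcn and Pdgfra were higher, with sums of 757 to 1186 against 570 to 819. Of 13 thyrocyte markers, all but Slc26a4 were detected in every mouse. Their summed CPM, mostly Tg, was 101506 to 257390 in affected and 211503 to 305437 in unaffected mice, with a median log2 fold change of -0.23 over the 13 genes. Pax8 fell by 0.81 on the log2 scale and Slc26a4 rose, and 4 markers were lower at an unadjusted p under 0.05 and 3 with DESeq2. Skeletal muscle markers summed to 28130 CPM in affected mouse 6 and to 17.2 to 1286 in the other affected mice, with 8.81 to 12274 in unaffected mice. Affected mice 1 and 6 also had the lowest shares of Tg, 11.04% and 10.7%, and the highest shares of mitochondrial transcripts, 7.16% and 6.86%, against at most 4.63% in any other mouse. Without both of them 49 members were higher, with a median of 0.27. B cell markers summed to 271 CPM in affected mouse 1 and to at most 53.2 in any other mouse, and T cell markers to 295 and 299 in unaffected mice 14 and 21. Parathyroid markers summed to 46.4 CPM in affected mouse 4 and to between 3625 and 9439 in the other mice. Among the other marker lists, Kdr was lower among 6 endothelial genes. With edgeR, 0 genes passed among 7 of adipose tissue (3 higher at an unadjusted p under 0.05 and 1 with DESeq2), and 0 among those of T cells, B cells, skeletal muscle, parathyroid, C cells, erythrocytes and proliferation, for which the unadjusted test and DESeq2 also gave 0. The part of these cells in the result was not tested.

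Rplp0, the base of the stalk that calls elongation factors to the large subunit, was among the members with the largest increase. Its CPM was 422, 471, 522, 485 and 406 in affected mice 1, 3, 4, 5 and 6, and 292, 305, 303, 289, 283, 307 and 280 in unaffected mice 14 and 21 to 26. The lowest affected mouse stood above the highest unaffected mouse. The increase was 1.57-fold (log2 fold change 0.65, SE 0.07, adjusted p = 0.000138 with edgeR), with a length-corrected level of 348 ± 43.8 FPKM (SD, n = 5) against 220 ± 11.8 (SD, n = 7). Rplp0 (ENSMUSG00000067274, GRCm38, chr5:115559467-115563727, plus strand) is often used as a reference gene in quantitative PCR. It is not marked as lying over another gene, and its pseudogenes held only 0.63% of its count.

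Of the other 3 stalk genes, 2 were higher, where 47 of the 80 members and 7.63% of all genes were. Rplp1 and Rplp2 encode the acidic proteins that form the tip of the stalk. Rplp1 was 125 to 136 CPM in affected and 105 to 117 in unaffected mice, without overlap (log2 fold change 0.23, SE 0.05, edgeR adjusted p = 0.00858). Rplp2 was 65.6 to 95.4 CPM in affected and 57.5 to 69.9 in unaffected mice, and affected mouse 4 lay within the unaffected range (0.31, SE 0.08, edgeR adjusted p = 0.0277). Rpl12, which sits at the base beside Rplp0, did not pass (0.38, SE 0.14, edgeR adjusted p = 0.0892). The differences between Rplp0 and these 3 genes were not tested.

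To compare members with each other, libraries were scaled to the summed counts of the members. On this scale 3 members were higher and 6 were lower, while 3.09% of all genes were higher and 27.4% lower. The 3 higher members were Rps27l (0.44, edgeR adjusted p = 0.00124), Rplp0 (0.41, edgeR adjusted p = 0.000385) and Rpl23a (0.15, edgeR adjusted p = 0.0371). Rpl23a, which is marked as confounded, carries a docking site for the signal recognition particle at the tunnel exit, and its call was lost when any 1 of 9 of the 12 mice was left out. The 6 lower members were Rpl3 (-0.30), Rpl22 (-0.30), Rps19 (-0.25), Rpl5 (-0.21), Rpl7 (-0.19) and Rps9 (-0.16). Of the 12 fits that left out 1 mouse, 6 lost the call of Rpl7, 3 that of Rps9 and 1 that of Rpl5. For Rplp0, Rps27l, Rpl3, Rpl22 and Rps19 the call held whichever mouse was left out. In counts, Rpl3, Rpl22 and Rps19 thus lagged behind the family in each of those fits. Counts are not corrected for transcript length. For Rpl22 the implied length described below was 836 bp in affected and 963 bp in unaffected mice, a fall of 13.2%. Its FPKM was 107 in affected and 97.1 in unaffected mice. The part of length in the lag of Rpl22 was not tested. For Rpl5 the result rests on where its reads were placed, since with the counts of pseudogene rows added to their parents it stood at -0.004 (edgeR adjusted p = 0.965). That fit also called Rps12 higher (0.18, edgeR adjusted p = 0.0170) and Rpl7a lower (-0.15, edgeR adjusted p = 0.0394).

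Rpl3, at the peptidyl transferase centre, had 289, 313, 341, 322 and 241 CPM in affected mice 1, 3, 4, 5 and 6, and 290 to 336 in unaffected mice. Rps19, the gene most often mutated in Diamond-Blackfan anaemia, had 117, 119, 128, 131 and 101 CPM in the same affected mice and 105 to 139 in unaffected mice. The groups overlapped for both, and neither passed against all genes (log2 fold changes -0.06, SE 0.08, and -0.01, SE 0.08, with edgeR adjusted p = 0.681 and 0.931). Both were lowest in affected mouse 6.

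Of 9 members around the exit tunnel, 8 were higher, with a median of 0.31 over the 9. Of all 80 tested members 47 were higher, with a median of 0.24, as were 7.63% of all genes. The difference between these 9 and the other members was not tested. Rpl23a was 182 to 214 CPM in affected and 139 to 161 in unaffected mice, without overlap (0.38, SE 0.06, edgeR adjusted p = 0.00201). Rpl26, which lies near the tunnel's end and whose protein also binds p53 mRNA, was 146 to 183 CPM against 114 to 133, again without overlap (0.37, SE 0.07, edgeR adjusted p = 0.00500). Rpl35, beside Rpl23a at the exit, rose by 0.31 (SE 0.05), and its value is uncertain for the reason given above. The gene of this group that did not rise in counts was Rpl22, whose implied transcript length also differed between the groups, as described below. Rpl29, a surface protein of the large subunit that is not essential in mice, was also among the largest increases (0.36, SE 0.08, edgeR adjusted p = 0.0111).

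In the small subunit, Rpsa, a surface protein also known as the laminin receptor, rose by 0.36 (SE 0.06, edgeR adjusted p = 0.00266) and had 266 ± 8.62 CPM (SD, n = 5) against 207 ± 15.2 (SD, n = 7). Rps26, at the exit of the mRNA channel, had 127 to 186 CPM in affected and 109.6 to 125 in unaffected mice (0.36, SE 0.09, edgeR adjusted p = 0.0184). Rps6 was 229 to 303 CPM against 203 to 245, and affected mouse 6 lay within the unaffected range (0.29, SE 0.08, edgeR adjusted p = 0.0240). Of 5 members at the decoding site and mRNA entry, Rps15 and Rps23 were higher, and Rps2, Rps3 and Rps9 did not pass. Among all 80 members 47 were higher, and among all genes 7.63%. Rps3, which helps unwind mRNA at the entry, had a log2 fold change of 0.15 (SE 0.07, edgeR adjusted p = 0.192). Rps27a, made as a fusion with ubiquitin, had 0.10 (SE 0.06, edgeR adjusted p = 0.273).

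Rpl5 and Rpl11, which bind 5S rRNA and hold back MDM2 when ribosome assembly fails, did not pass. Rpl5 was 32.2 to 36.3 CPM in affected and 30.6 to 36.9 in unaffected mice (0.03, SE 0.06, edgeR adjusted p = 0.814). With the counts of its pseudogene rows added, its log2 fold change was 0.24 (edgeR adjusted p = 0.0510), which did not pass either. Rpl11 was 81.8 to 89.2 CPM against 69.1 to 83.6 (0.13, SE 0.06, edgeR adjusted p = 0.178). With its pseudogene rows added, Rpl11 stood at 0.12 (edgeR adjusted p = 0.232). Rpl10, a late-joining protein of the large subunit, was also not called (0.13, SE 0.06, edgeR adjusted p = 0.174). Rpl5 and Rpl10 are the 2 members whose pseudogene rows held the most counts relative to their own.

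Rps27l was the member with the largest increase. It is a copy of Rps27 that p53 is known to induce, and both proteins can occupy the same place in the small subunit. Rps27l had 29.0, 28.4, 32.1, 30.8 and 29.0 CPM in affected mice 1, 3, 4, 5 and 6, and 18.95, 18.89, 18.0, 21.2, 17.0, 19.6 and 17.4 in unaffected mice 14 and 21 to 26. Every affected mouse was above every unaffected mouse, with a 1.59-fold increase (log2 fold change 0.67, SE 0.07, edgeR adjusted p = 8.67e-05). Rps27 had 101 to 126 CPM in affected and 97.4 to 123 in unaffected mice and did not pass (0.08, SE 0.08, edgeR adjusted p = 0.551). The log2 ratio of Rps27l to Rps27, which does not depend on scaling, was -1.91 ± 0.183 (SD, n = 5) in affected and -2.51 ± 0.144 (SD, n = 7) in unaffected mice. The groups did not overlap, and the difference of 0.59 had p = 0.00126 by exact permutation of the mice (two-sided, 792 splits), the smallest p possible, or 0.00758 adjusted over the 6 pairs tested. By length, Rps27l stood at 57.3 ± 4.30 FPKM (SD, n = 5) against 36.2 ± 2.88 (SD, n = 7), and Rps27 at 325 ± 56.3 against 307 ± 28.7. Rps27l thus remained the minor copy in both groups. Rps27l (ENSMUSG00000036781, GRCm38, chr9:66946086-66949516, plus strand) has no pseudogene row in the table and is not marked as lying over another gene.

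**Figure D4:**
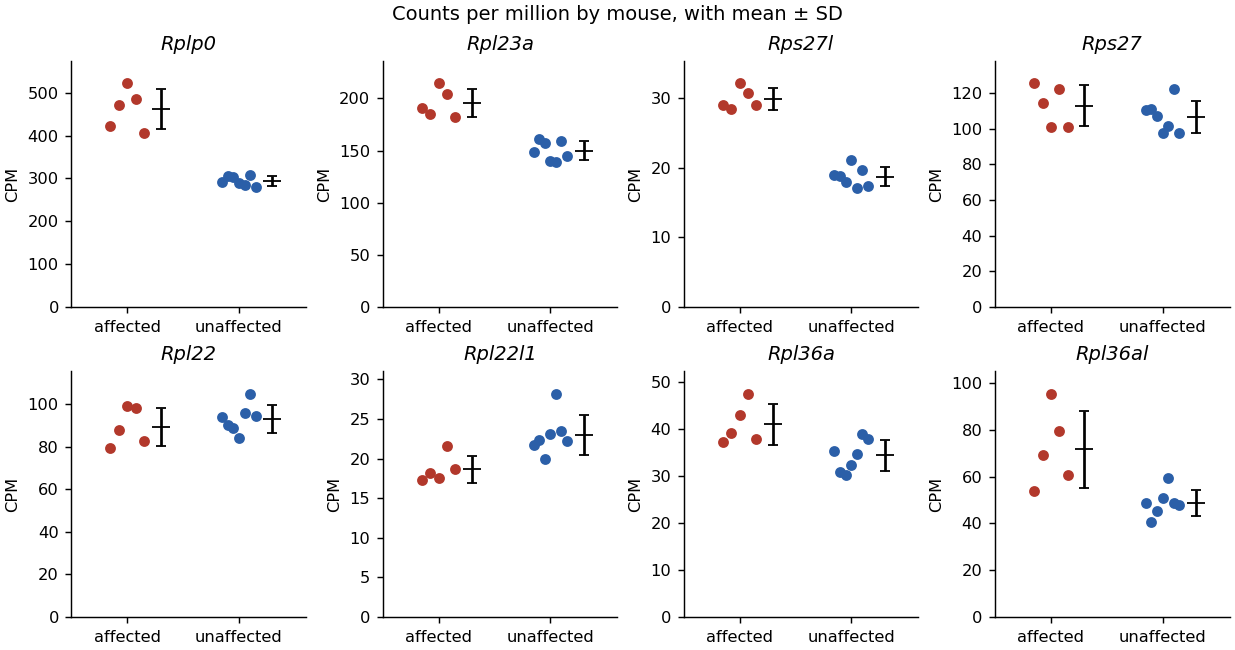
CPM in each of the 5 affected (red) and 7 unaffected (blue) mice, with mean and SD, for Rplp0, Rpl23a and 3 genes with their second copies. Rplp0, Rpl23a and Rps27l do not overlap between the groups, while Rps27 and Rpl22 do.

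Rpl22, a large subunit protein that is not essential in mice, and its copy Rpl22l1, which the name rule leaves out, had a ratio that fell in affected mice. Rpl22 had 79.3, 88.0, 99.1, 98.1 and 82.6 CPM in affected mice 1, 3, 4, 5 and 6, and 84.4 to 105 in unaffected mice (-0.06, SE 0.07, edgeR adjusted p = 0.634). Rpl22l1 had 17.3, 18.2, 17.6, 21.6 and 18.7 CPM in the same affected mice and 19.97 to 28.2 in unaffected mice, and it fell by 0.30 on the log2 scale (SE 0.09, edgeR adjusted p = 0.0410), a call that 18 of 26 alternatives lost. The log2 ratio of Rpl22l1 to Rpl22 was -2.25 ± 0.140 (SD, n = 5) against -2.02 ± 0.152 (SD, n = 7), a difference of -0.23 (exact permutation test, p = 0.0126, adjusted p = 0.0379). In FPKM in place of CPM the difference was -0.43 (exact permutation test, adjusted p = 0.00379). FPKM takes in the length used for Rpl22, which differed between the groups as described below, so this value is no separate check. In CPM the groups overlapped. Leaving out affected mouse 3, 4 or 5, or unaffected mouse 21 or 26, raised the adjusted p above the threshold (exact permutation test, 0.0519 to 0.113).

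Rpl22 also differed in the transcript length that the tables imply. Dividing a gene's count by its FPKM and by the library total gives the length with which the authors' software scaled it, which shifts when reads move between long and short transcripts of a gene. For Rpl22 (ENSMUSG00000028936, GRCm38, chr4:152325742-152334071, plus strand) this length was 817, 813, 853, 827 and 869 bp in affected mice 1, 3, 4, 5 and 6, and 930.2, 974, 987, 940.5, 960.1, 957 and 993 bp in unaffected mice 14 and 21 to 26. The groups did not overlap, with a mean of 836 ± 24.0 bp (SD, n = 5) against 963 ± 23.3 bp (SD, n = 7), a fall of 13.2%. Of 75 members that have several transcripts and reach 100 counts in each mouse, 4 did not overlap between groups, against 1.67% of 9084 such genes. The other 3 differed by less, Rps15a by -5.44%, Rpl13 by -0.40% and Rpl26 by -0.07%. The median member differed by 0.36% in either direction, and the median of all 9084 genes by 1.36%. In GENCODE M21, Rpl22 has 8 transcripts, among them protein-coding ones of 474, 2048 and 2051 bases. FPKM of Rpl22, which takes in this length, was 107 ± 12.4 (SD, n = 5) in affected and 97.1 ± 7.73 (SD, n = 7) in unaffected mice, so that its small difference has the opposite sign to that in CPM. Which transcripts changed was not tested, because the tables hold 1 value per gene.

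**Figure D5:**
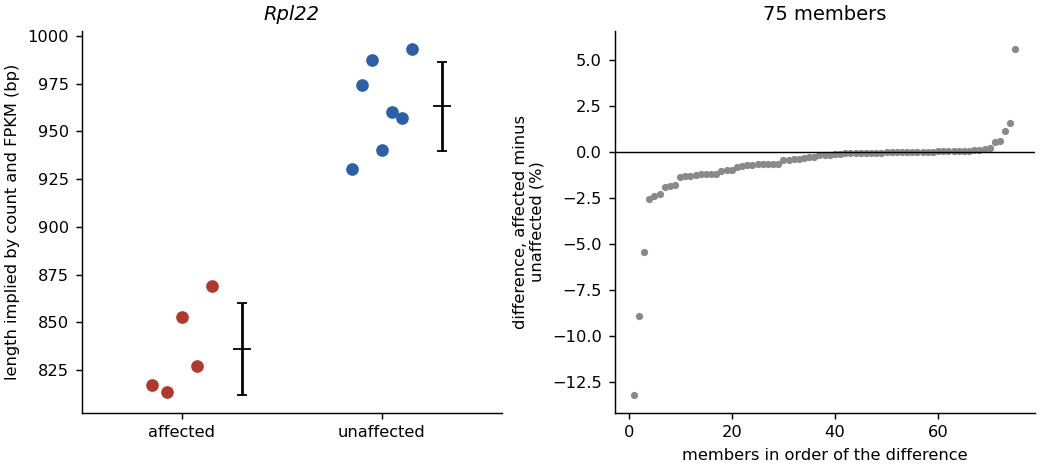
Left, transcript length of Rpl22 implied by count and FPKM in each mouse, with mean and SD, on an axis that does not start at 0. Right, the percent difference between the groups for 75 members in order, where Rpl22 is the lowest point at -13.2% and most members lie close to 0.

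The other second copies gave less. Rpl3l, the copy of Rpl3 used in muscle, had 0.569, 1.09, 1.29, 5.32 and 67.8 CPM in affected mice 1, 3, 4, 5 and 6, and 0.0835, 13.6, 30.5, 13.2, 2.44, 24.8 and 0.206 in unaffected mice 14 and 21 to 26. It was highest in affected mouse 6 and lowest in unaffected mouse 14, as the summed skeletal muscle markers were highest in affected mouse 6 and low in unaffected mouse 14 (11.5 CPM). Its ratio to Rpl3 differed by -0.24 with SDs of 2.82 and 3.04 log2 units (exact permutation test, p = 0.898, adjusted p = 0.898). Rpl36al is a copy of Rpl36a that the name rule leaves out. It rose by 0.56 (SE 0.13, edgeR adjusted p = 0.0154), while Rpl36a itself did not pass (0.25, SE 0.08, edgeR adjusted p = 0.0655). Their log2 ratio was 0.79 ± 0.232 (SD, n = 5) against 0.50 ± 0.171 (SD, n = 7), and its difference of 0.28 did not pass (exact permutation test, p = 0.0316, adjusted p = 0.0631). Pseudogene rows held 37.5% of the count of Rpl36a, and with them added its log2 fold change was 0.18 (edgeR adjusted p = 0.132). The ratio is uncertain for that reason. The ratios of Rps4l to Rps4x and of Rpl7l1 to Rpl7 differed by 0.24 and 0.08 (exact permutation test, adjusted p = 0.326 and 0.598). The testis copies Rpl10l and Rpl39l had too few counts for a test. Of the further ribosomal proteins that the rule leaves out, Rps3a1 and Fau did not pass, with log2 fold changes of 0.14 and 0.20.

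The lists of genes that work with the ribosome had smaller median changes than the members. Of 15 translation factors and other genes known for TOP tracts, 3 were higher and 1 lower (median 0.12), where 7.63% of all genes were higher and 6.1% lower. Tpt1, an abundant TOP mRNA, had 736 ± 41.2 CPM (SD, n = 5) against 536 ± 30.1 (SD, n = 7), with a log2 fold change of 0.46 (edgeR adjusted p = 0.000701). Eef1b2, an elongation factor subunit, rose by 0.38 and Rack1, a scaffold on the small subunit, by 0.25, while Hnrnpa1, an RNA-binding protein, fell by 0.32. Of 40 ribosome assembly genes, 7 were higher and 0 lower (median 0.16). They include Nhp2, a protein of the particles that pseudouridylate rRNA (0.54), Ltv1, an assembly factor of the small subunit (0.42), and Sbds, which helps release EIF6 from the large subunit (0.41). Of 78 mitochondrial ribosomal proteins, which serve a separate ribosome, 6 were higher and 0 lower (median 0.15), which is close to the 7.63% called higher among all genes. Their log2 fold change was nevertheless positive in 65 of 78, against 50.8% of all genes. With DESeq2 11 of them were higher, as were 2046 of all 19661 genes. The 6 called with edgeR include Mrps18b (0.66), Mrpl54 (0.56) and Mrps6 (0.53). Of 26 alternatives 17 lost the call of Mrps6, as 9 of 27 did that of Ltv1. Of 12 quality control genes (median 0.20), Vcp, a segregase that extracts ubiquitinated proteins (0.59), and Gtpbp2, which acts on stalled ribosomes (0.34), were higher. Among 11 regulators, Myc, a transcription factor for ribosomal protein genes, rose by 0.49 (edgeR adjusted p = 0.0436), a call that 19 of 27 alternatives lost. Its relative Mycn fell by 1.01 on the log2 scale from a low level, 1.58 ± 0.373 CPM (SD, n = 5) against 3.17 ± 0.739 (SD, n = 7). Of 7 chaperones of single ribosomal proteins, 0 passed with edgeR (median 0.18), 2 were higher at an unadjusted p under 0.05 and 1 was higher with DESeq2. The log2 fold change was positive in 12 of 12 quality control genes, 33 of 40 assembly genes and 11 of 15 TOP genes. It was positive in 5 of 7 chaperones and 7 of 11 regulators, against 77 of 80 members and 50.8% of all genes.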

How the data were processed

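Libraries were made by the authors from 500 ng of total mouse thyroid RNA with the KAPA RNA HyperPrep kit and RiboErase and sequenced on a NextSeq 500 with a 75-cycle flow cell. The authors aligned reads with OSA4 and quantified genes in OmicSoft Array Studio with Ensembl R96 gene models, and deposited estimated counts, which were not normalized, and FPKM. Whole numbers made up 81.0% to 84.7% of a mouse's values, so the deposited counts are estimates. Whether counting used the strand is not given in the sources used here. All 83 members have the same start and end in GENCODE M21 (GRCm38).

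Groups were taken from the sample labels. Estimated counts were rounded, filtered with edgeR's filterByExpr (minimum count 10), scaled by TMM and tested with edgeR 4.0.16 in R 4.3.3 (robust quasi-likelihood, no covariates), with p-values adjusted by Benjamini-Hochberg over the 19661 genes and a threshold of 0.05. The standard error was taken as the log2 fold change over the root of F. CPM is on the TMM scale, and log2 CPM has a prior count of 2. Ratios of paired copies used log2(CPM + 0.1) and an exact two-sided permutation test over mice, for copies with at least 10 counts in 5 or more mice. The alternatives were DESeq2 1.42.0, other scalings and filters, limma 3.58.1 on log2(FPKM + 1) or log2(FPKM + 0.1) at a mean FPKM of at least 0.5 or without a filter, which understates changes of low genes, Xist as a covariate, 6 B6NCrl controls only, no confounded genes, and each mouse left out. Scaling to the summed members, adding 996 pseudogene rows to 76 parents, leaving out affected mice 1 and 6, and totals without Tg and mitochondrial genes were chosen after seeing the data. The fit with B6NCrl controls only is the same as the fit without unaffected mouse 14, so the counts of alternatives include it under both names. The test was checked on simulated counts.

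Members and gene lists were chosen with earlier results of these data known. Named members are the 5 largest increases, the 3 negative members of lowest p, those with named roles or second copies, and the extremes of FPKM. Outside the members, each list gave up to 3 names, by largest change past the threshold. Other genes were named after their values were seen. The labels do not say how the mice were related or handled, so p-values measure the spread between these samples. Counting error is small at these depths for most members, but not for genes with few counts, such as Rpl32l, Rps4l, Mycn and, in some mice, Rpl3l. It was not given separately. A few genes chosen by this rule are not reported here.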

Additional observations from a re-analysis of the deposited data

Results flagged for a closer look

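Among 110 group values checked for 1 sample standing far from the rest by Dixon's criterion, 5 stood out, about the number that chance gives at 1 in 20. In affected mouse 4, Rps24 had a log2 CPM of 8.48, while the other affected mice ran from 8.07 to 8.17. In affected mouse 6, the members took 0.917% of the counts, against 1.12% to 1.196% in the other affected mice, and that mouse also had the highest sum of skeletal muscle markers. In unaffected mouse 24, the assembly factor Ltv1 had a log2 CPM of 2.70, against 3.16 to 3.31 in the other unaffected mice. In unaffected mouse 23, the log2 ratio of Rps27l to Rps27 was -2.20, the unaffected value nearest to the affected mice, against -2.64 to -2.48 in the rest. In unaffected mouse 25, the log2 ratio of Rps4l to Rps4x was -6.53, against -6.01 to -5.72 in the rest.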

How the results depend on the processing

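The number of members called higher was 57 with DESeq2, 52 with at least 10 counts in every mouse, 39 with Xist as a covariate, 34 with only B6NCrl controls, 27 without a filter, 22 with upper-quartile factors, 15 with library totals, 15 of 33 without confounded genes, 11 from FPKM with either pseudocount and 8 from FPKM without a filter. It was 2 with library totals without Tg, with or without the mitochondrial genes, where the median of the members was 0.10 and 0.12. Leaving out 1 mouse gave 20 to 51. In each of these fits 0 members were lower. Called genes of the other ribosome-related lists, 20 higher and 3 lower, became 33 higher with DESeq2, 4 higher and 6 lower without Tg in the totals, 6 higher and 5 lower without Tg and mitochondrial genes, 8 higher from FPKM without a filter, 7 higher without confounded genes, and 12 to 39 higher when a mouse was left out. Over all genes, 1500 higher and 1199 lower became 608 and 1711 without Tg in the totals and 1149 and 1510 with upper-quartile factors.

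Scaling to the summed members, which compares members with each other, turned Rpl5 (-0.21), Rpl7 (-0.19) and Rps9 (-0.16) from positive and not called to lower. Each of these 3 calls was lost in at least 1 fit that left out a mouse. The sign changes that follow, under the other alternatives, are of values that did not pass on either side. Rpl22 was 0.13 from FPKM in each form and 0.028 without affected mice 1 and 6. Rpl3 ran from -0.089 to 0.020 with a mouse left out and was 0.054 without affected mice 1 and 6. Rps19 ran from -0.052 to 0.048 with a mouse left out and was 0.067 without affected mice 1 and 6. Rpl5 was -0.11 without Tg in the totals, -0.088 without Tg and mitochondrial genes, -0.021 with upper-quartile factors, and -0.061 or -0.063 from FPKM. Without Tg in the totals, Rpl11 was -0.0050, Rpl10 -0.0042, Rps27a -0.034, Rps27 -0.050 and Rpl32l -0.0042, and without mitochondrial genes as well Rps27a was -0.014 and Rps27 -0.030. Rpl32l ran from -0.0048 to 0.37 with a mouse left out. Rpl3l was -0.36 or -0.17 from FPKM, -0.37 with Xist, -2.24 without affected mice 1 and 6, and from -2.55 (without affected mouse 6) to 0.74 with 1 mouse left out. With 1 mouse left out the log2 ratio of Rpl3l to Rpl3 differed by -1.40 to 0.33, that of Rpl22l1 to Rpl22 by -0.26 to -0.17 and that of Rpl36al to Rpl36a by 0.19 to 0.35. The cause was not tested. No paired analysis was possible because the groups share no replicate numbers.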
